A study of Mus musculus with 2 samples.

Results

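The genes described here are the mouse gene Aire and 9 genes whose proteins are known partners of AIRE in transcription: the end-joining kinase subunit Prkdc, the Ku pair Xrcc5 and Xrcc6, the break sensor Parp1, the topoisomerases Top1 and Top2b, the pause release kinase Cdk9 and its cyclins Ccnt1 and Ccnt2. The genes were picked by their known roles, at a time when earlier results of these arrays were known, and their probe sets by gene symbol. Every probe set that the platform's annotation gives to 1 of these symbols was taken, which gave 24 of the 45037 probe sets on the array that are not controls, and 10 of 18193 named genes. The transgenic group (Tg) was RNA from NOD mice that carry human AIRE under an MHC class II promoter, and the non-transgenic group (non-Tg) was RNA from NOD mice without it. NOD is an inbred strain that develops autoimmune diabetes. Each group was a single Affymetrix array of RNA from 2 mice aged 8 weeks, so the RNA of each group was pooled and no value has a replicate. The cells were B cells, positive for B220 and negative for Thy1 and CD11c. MHC class II promoters are active in antigen-presenting cells in general, so the transgene was not limited to B cells by its promoter. With 1 array a group there was no test, and each ratio describes these 2 arrays only.

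AIRE is known from medullary thymic epithelial cells, where it lets genes of other tissues be transcribed so that developing T cells meet their products. It does not read a DNA motif of its own in the way of a classical transcription factor. AIRE is found with topoisomerases, which cut DNA to relieve supercoiling, and with DNA-dependent protein kinase, Ku and PARP1, which recognise DNA breaks. It also recruits P-TEFb, the CDK9 and cyclin T kinase that phosphorylates paused RNA polymerase II and its pausing factors and so releases the polymerase into elongation. Most of these partners are ubiquitous proteins, while Aire itself is expressed in few cell types.

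The promoters of 5 of the genes are shown because the results turn on Aire, on the Ku pair and on the cyclin pair. The Ku probe sets were all higher on the Tg array. The probe sets of the cyclins lay on opposite sides of the array-wide median ratio, though the brighter Ccnt1 probe set was nearly level with it (log2 -0.01 from it as deposited). A promoter entry was found for 9 of the 10 genes in RefSeq (build GRCm38.p6), and the 250 bases before the annotated start are printed 5′ to 3′ in the direction of the gene. Capitals mark matches, on either strand, to 7 short motifs: the TATA box TATAAA, the CCAAT box, the GC box GGGCGG, the ETS motif CCGGAAGT, the core of the interferon-stimulated response element (2 copies of GAAA with 2 bases of any kind between them), the E-box CACGTG and the cAMP response element TGACGTCA.
Aire promoter, chr10:78043611-78043860, minus strand: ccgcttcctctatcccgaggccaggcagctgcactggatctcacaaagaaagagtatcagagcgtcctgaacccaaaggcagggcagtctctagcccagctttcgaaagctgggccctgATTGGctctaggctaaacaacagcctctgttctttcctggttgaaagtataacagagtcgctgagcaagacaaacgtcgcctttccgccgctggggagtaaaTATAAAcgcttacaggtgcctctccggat
Xrcc5 promoter, chr1:72307171-72307420, plus strand: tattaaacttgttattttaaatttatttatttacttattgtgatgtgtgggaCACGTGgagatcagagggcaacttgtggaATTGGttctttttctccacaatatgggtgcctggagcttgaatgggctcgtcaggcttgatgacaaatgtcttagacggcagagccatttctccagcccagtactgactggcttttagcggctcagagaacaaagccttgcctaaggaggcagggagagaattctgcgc
Xrcc6 promoter, chr15:82016119-82016368, plus strand: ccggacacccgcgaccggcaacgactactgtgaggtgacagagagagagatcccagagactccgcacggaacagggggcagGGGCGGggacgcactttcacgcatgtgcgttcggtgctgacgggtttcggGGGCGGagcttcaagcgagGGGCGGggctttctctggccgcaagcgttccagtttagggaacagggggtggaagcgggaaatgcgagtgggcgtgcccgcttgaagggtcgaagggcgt
Ccnt1 promoter, chr15:98567737-98567986, minus strand: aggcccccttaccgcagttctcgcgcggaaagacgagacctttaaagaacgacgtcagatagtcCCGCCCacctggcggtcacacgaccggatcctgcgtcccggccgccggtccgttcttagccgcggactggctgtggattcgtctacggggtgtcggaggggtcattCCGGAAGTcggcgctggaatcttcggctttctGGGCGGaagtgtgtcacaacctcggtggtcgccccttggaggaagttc
Ccnt2 promoter, chr1:127773914-127774163, plus strand: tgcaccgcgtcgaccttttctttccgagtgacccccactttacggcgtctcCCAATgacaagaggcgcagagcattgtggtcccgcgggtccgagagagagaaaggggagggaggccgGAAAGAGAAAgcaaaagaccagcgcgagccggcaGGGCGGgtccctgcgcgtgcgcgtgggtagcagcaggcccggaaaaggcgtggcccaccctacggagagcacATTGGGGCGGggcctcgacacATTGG

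The promoters differed in the elements they held. Of the 9 promoters, that of Aire alone held TATAAA, from 29 to 24 bases before the start, a motif found in 12.4% of the 32851 promoters of the same length. GC boxes were found in 7 of the 9 promoters, those of Parp1, Top1, Top2b and Cdk9 included, and in 32.7% of all promoters. The exceptions were Aire and Xrcc5. The CCAAT box was in 5 of the 9, those of Aire, Xrcc5, Top2b, Cdk9 and Ccnt2, against 33.8% of all.

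The Ku promoters shared no motif of the 7. Xrcc5 had a CCAAT box, an E-box (a motif of 6.02% of all promoters) and 5 CpG dinucleotides in the window, and Xrcc6 had 3 GC boxes and 25 CpGs, where the median promoter had 6. Between the cyclin genes, Ccnt1 had 2 GC boxes, an ETS match (2.88% of all promoters) and 28 CpGs. Ccnt2 had 2 GC boxes, 3 CCAAT boxes, 1 of which shares a base with a GC box, and 24 CpGs. Ccnt2 was also the only member with a match to the interferon-stimulated response element, at 132 to 123 bases before its start, against 2.98% of all promoters. No member held TGACGTCA in this window. These matches describe letters, and binding was not measured.

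Of the 24 probe sets, 22 lay above the filter, meaning that the higher of their intensities reached 98.8, the median of all intensities on both arrays. The pair under it were the single Aire probe set and the dimmer probe set of Xrcc6. Ratios are log2 Tg over non-Tg of the intensities as the authors deposited them, and no member was at the floor of 25 to which lower values were set. Over the 24005 probe sets above the filter the median log2 ratio was -0.03, with a standard deviation of 0.62 and a middle 95% from -1.45 to 1.06.

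As deposited, no member was at least 2-fold higher by any probe set, and 2 of 22 probe sets were at least 2-fold lower, 1 of Ccnt1 and 1 of Top1. Over all probe sets above the filter 9.06% were 2-fold apart, 2.89% higher and 6.17% lower, so the members' share of 9.09% in either direction was near that background. With the medians of the arrays aligned, both Ccnt1 and Top1 probe sets came in under 2-fold, and 1 probe set of Ccnt2 came to be more than 2-fold higher (1.11). The array-wide split also depended on this choice: 31.9% of the 2-fold probe sets were higher on the Tg array as deposited, 53.8% with medians aligned, 44.8% after quantile normalization and 45.5% after loess. When each gene was represented by its probe set of highest mean level, 9 of the 10 genes lay above the filter and 0 of 9 were 2-fold apart, against 7.46% of 10804 genes (2.7% higher and 4.76% lower). Their median log2 ratio was 0.20, against 0.01 over all genes above the filter, and 7 of the 9 had a ratio above 1, against 51.2% of all genes. By the mean of each gene's probe sets above the filter only 5 of the 9 did, as Top1 and Cdk9 then lay below 1.

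**Figure D1:**
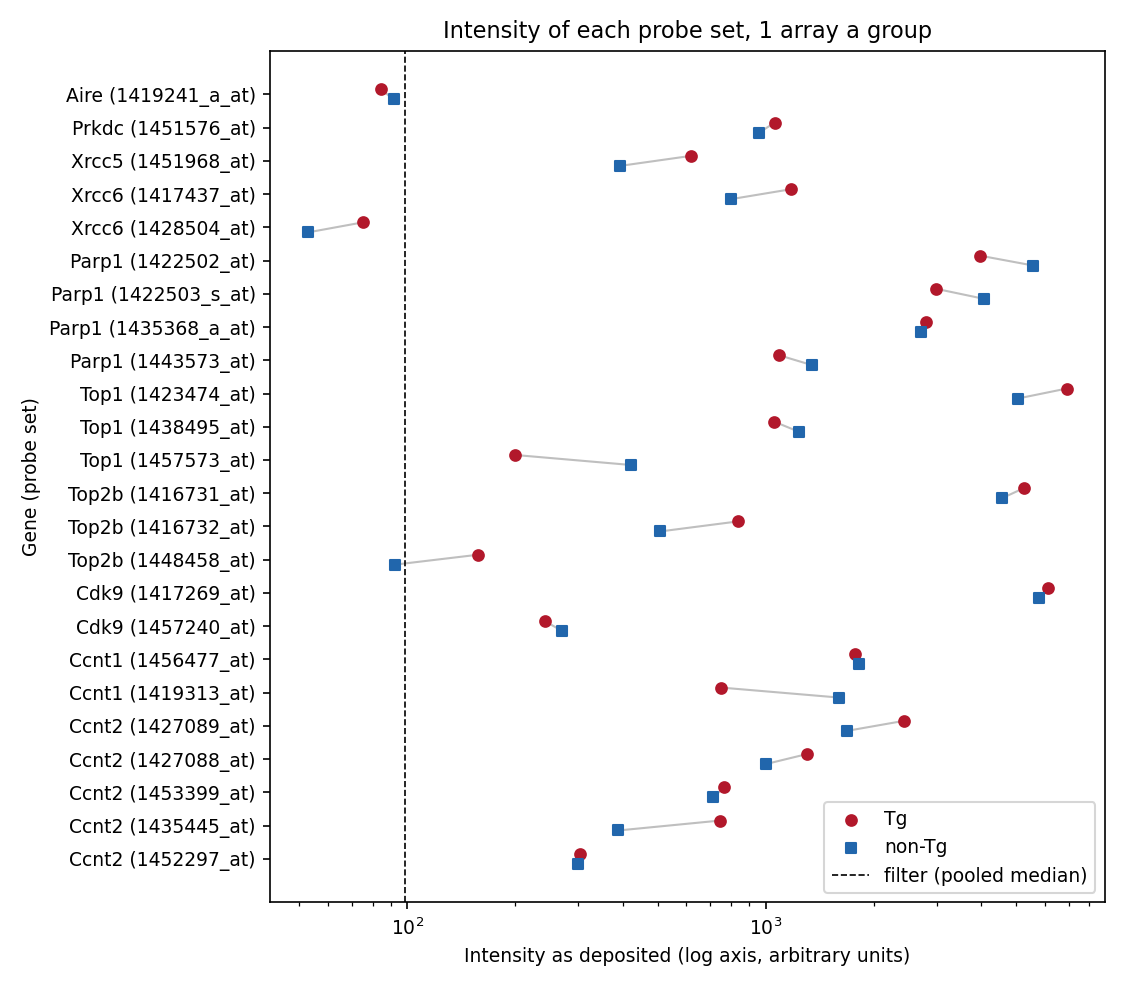
Intensity as deposited (log axis) of each of the 24 probe sets on the Tg array (red circles) and the non-Tg array (blue squares), with the filter of 98.8 as a dashed line. The Aire points lie together just left of the filter, the Xrcc5 and Xrcc6 points have Tg to the right, and the lower of the Ccnt1 rows and the lowest Top1 row have Tg furthest to the left of non-Tg.

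Aire itself was read by the probe set 1419241_a_at, at an intensity of 84.5 on the Tg array and 91.7 on the non-Tg array (log2 ratio -0.12). Both values were under the filter, and 43% of the probe sets above the filter had a lower ratio. The sign turned with the scaling: the ratio was 0.05 with medians aligned, 0.06 after quantile normalization and 0.08 after loess. The probe set is annotated to the mouse transcript, and whether it reads human AIRE was not tested, so it gives no check of the transgene. Epcam, the brightest probe set among markers of medullary thymic epithelium, the main site of Aire expression, was at 137.8 on the Tg and 169.8 on the non-Tg array.

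Among the genes of break recognition, the Ku pair was higher and Parp1 was mostly lower on the Tg array. Xrcc5 encodes Ku80 and Xrcc6 encodes Ku70, which together form the ring that slides onto broken DNA ends. Xrcc5 had an intensity of 617.2 on the Tg array and 392.4 on the non-Tg array, 1.57-fold higher (log2 0.65), and 92.1% of probe sets above the filter had a lower ratio. The brighter probe set of Xrcc6 was at 1179.4 on the Tg and 801.1 on the non-Tg array, 1.47-fold higher (log2 0.56). Its other probe set was under the filter at 75.1 on the Tg and 52.9 on the non-Tg array, with a like ratio (log2 0.51). The 3 Ku probe sets thus lay between 0.51 and 0.65, each beyond the 75th percentile of 0.29 over the arrays and within the middle 95%.

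Prkdc, the catalytic subunit that Ku recruits to broken ends, stood nearer to the array-wide ratio. Its single probe set was at 1059.0 on the Tg and 957.9 on the non-Tg array (log2 0.14), with 64% of probe sets lower. The other end-joining genes did not share the Ku ratio as a set, though Aplf and Lig4, given below, were higher by at least as much. Of 9 listed, 7 were named on the array and above the filter, with a median log2 ratio of -0.18. By representing probe sets 1 of the 7 was 2-fold higher and 0 were lower, against 2.7% and 4.76% of all genes. The higher gene was Aplf, a factor that binds Ku and poly(ADP-ribose), at 132.4 on the Tg and 27.2 on the non-Tg array, where it was only just above the floor, so it passed the filter only through its Tg value. A dimmer probe set of Paxx, a partner of Ku named after its values were seen, was 2-fold lower (-2.26), while its brighter one was at -0.18. The dimmer one was at 28.8 on the Tg array, only just above the floor, and 138.4 on the non-Tg array. It passed the filter only through its non-Tg value, so the filter fixed its direction. Lig4, the ligase that seals the joined ends and was picked out after its values were seen, was at 345.5 on the Tg and 211.1 on the non-Tg array (log2 0.71).

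Parp1, which marks DNA breaks with poly(ADP-ribose) chains, had 4 probe sets, 3 of them lower on the Tg array. The brightest was at 3955.8 on the Tg and 5586.4 on the non-Tg array, 1.41-fold lower (log2 -0.50). The probe set 1422503_s_at, whose name marks probes shared between transcripts, was at 2992.5 on the Tg and 4060.2 on the non-Tg array (log2 -0.44), and 1443573_at was at 1091.2 on the Tg and 1350.6 on the non-Tg array (log2 -0.31). The fourth, 1435368_a_at, was level at 2803.5 on the Tg and 2715.7 on the non-Tg array (log2 0.05), and its sign turned after loess (-0.02). The range of 0.54 between these 4 ratios was below the median range of 0.85 over 548 genes with 4 probe sets above the filter.

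By their representing probe sets, neither sensing genes nor other genes of poly(ADP-ribose) metabolism had a member 2-fold apart. Among 13 genes of break sensing and signalling above the filter, 10 had a ratio above 1, against 51.2% of all genes. Their median log2 ratio was 0.16. The kinase Atm, which is activated by double-strand breaks, was at 2373.7 on the Tg and 2325.6 on the non-Tg array (log2 0.03). Trp53bp1, which steers breaks towards end joining, was at 2941.5 on the Tg and 1788.0 on the non-Tg array (log2 0.72), but 2 of its 3 other probe sets were lower.

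The 8 genes of single-strand break repair and poly(ADP-ribose) had a median of 0.02. Over their 16 probe sets above the filter 1 was 2-fold lower, a dimmer probe set of the ligase gene Lig3 (-1.78), named after its values were seen. At 85.2 on the Tg and 293.0 on the non-Tg array, it passed the filter only through its non-Tg value, so the filter fixed its direction. Hpf1, the cofactor that directs PARP1 to serine residues, was at 4098.0 on the Tg and 2095.5 on the non-Tg array (log2 0.97), just short of 2-fold. Parp2, the close relative of Parp1, was at 1751.4 on the Tg and 1844.0 on the non-Tg array (log2 -0.07).

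**Figure D2:**
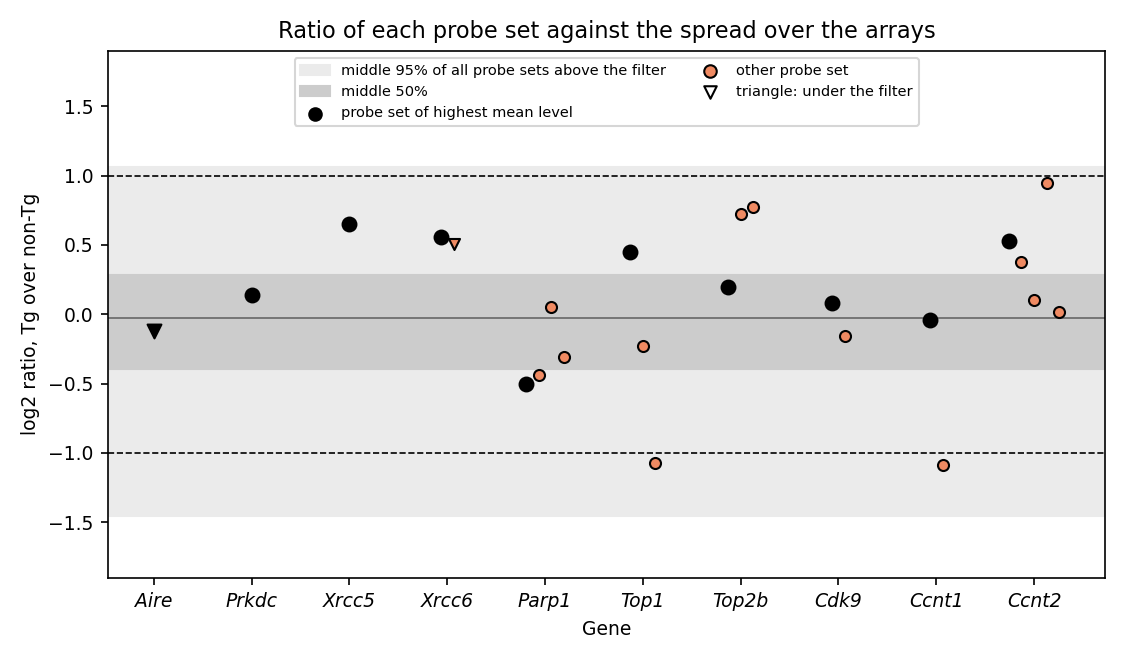
log2 ratio, Tg over non-Tg, of each probe set by gene, with black points for the probe set of highest mean level and triangles for those under the filter. Grey bands give the middle 95% (-1.45 to 1.06) and middle 50% (-0.39 to 0.29) of all probe sets above the filter, and dashed lines mark 2-fold. The Ccnt2 points all lie above 0, both Ccnt1 points below it, and the Top1 points spread widest.

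The topoisomerases differed in how well their probe sets agreed. Top2b, the type II enzyme that non-dividing cells also express, was higher on the Tg array by each of its 3 probe sets. The brightest was at 5243.2 on the Tg and 4564.4 on the non-Tg array (log2 0.20). The next was at 834.8 on the Tg and 508.4 on the non-Tg array (log2 0.72). The dimmest was at 157.9 on the Tg array and, under the filter, at 92.3 on the non-Tg array (log2 0.77). It passed the filter only through its Tg value, so the filter fixed its direction. The brightest of them thus had the smallest ratio, and it was within the middle 50% of the arrays.

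Top1, the type I enzyme that nicks a single strand, gave ratios of both signs. Its brightest probe set, 1423474_at, was at 6919.9 on the Tg and 5053.9 on the non-Tg array, 1.37-fold higher (log2 0.45). The probe set 1438495_at was at 1057.8 on the Tg and 1236.7 on the non-Tg array (log2 -0.23). The dimmest, 1457573_at, was at 200.2 on the Tg and 419.8 on the non-Tg array, 2.10-fold lower (log2 -1.07), and 4.45% of probe sets of like mean level (the second of 4 equal classes) were at least 2-fold lower. The range of 1.52 between the ratios was larger than in 91.7% of the 1341 genes with 3 probe sets above the filter, where the median range was 0.68. No single direction can therefore be given for Top1. Which exons or transcript ends these probe sets read was not analysed here.

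The other genes of topoisomerases, their partners and their repair mostly lay close to the array-wide ratio. All 7 were above the filter, with log2 ratios from -0.11 to 0.46, a median of 0.05 and none 2-fold apart. The topoisomerase genes among them, Top1mt, Top2a, Top3a and Top3b, ran from -0.11 to 0.06. Rmi1, a partner of topoisomerase III, was at 2533.3 on the Tg and 1841.1 on the non-Tg array (log2 0.46), with 3 of its 4 other probe sets lower. Tdp2, which removes trapped topoisomerase II from DNA ends, was at 1178.1 on the Tg and 1134.8 on the non-Tg array (log2 0.05). Top2a, the type II enzyme of dividing cells, picked out after its values were seen, was at 1007.9 on the Tg and 968.9 on the non-Tg array (log2 0.06).

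Among the subunits of the pause release kinase, the kinase was level and Ccnt2 was higher or level on the Tg array. Ccnt1 was level by its brighter probe set and lower by the other. Cdk9 had its brighter probe set at 6115.0 on the Tg and 5782.6 on the non-Tg array (log2 0.08). The dimmer was at 242.1 on the Tg and 270.7 on the non-Tg array (log2 -0.16). The distance of 0.24 between these ratios was below the median range of 0.42 over 2850 genes with 2 probe sets above the filter.

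Ccnt1 encodes cyclin T1, the main partner of CDK9. Its brighter probe set, 1456477_at, was level at 1773.8 on the Tg and 1825.5 on the non-Tg array (log2 -0.04). Its other probe set, 1419313_at, was at 752.4 on the Tg and 1603.0 on the non-Tg array, 2.13-fold lower (log2 -1.09). Of the 6001 probe sets of like mean level (the third of 4 equal classes), 2.95% were at least 2-fold lower. The probe sets of Ccnt1 thus differed by 1.05 on the log2 scale, more than in 87.8% of genes with 2, and the 2-fold value rests on 1 of them.

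Ccnt2 encodes cyclin T2, an alternative partner of CDK9, and was higher on the Tg array by all of its 5 probe sets. The brightest, 1427089_at, was at 2432.6 on the Tg and 1690.2 on the non-Tg array, 1.44-fold higher (log2 0.53). The probe set 1435445_at had the largest ratio, at 747.4 on the Tg and 387.6 on the non-Tg array, 1.93-fold higher (log2 0.95). Of the rest, 1427088_at was at 1303.2 on the Tg and 1002.1 on the non-Tg array (log2 0.38). The other two, at 0.10 and 0.02, were level, with 766.1 on the Tg and 714.0 on the non-Tg array for 1453399_at, and 304.2 on the Tg and 300.1 on the non-Tg array for 1452297_at. Their range of 0.93 was near the median of 0.98 over 261 genes with 5 probe sets. These probe sets read the same RNA samples and are not replicates of the difference between the groups.

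Relative to the median ratio of all probe sets above the filter, the probe sets of Ccnt2 were above 0 and those of Ccnt1 below it as deposited, after quantile normalization and after loess. Aligning the medians moves all genes nearly alike and so adds no separate view here. With that median taken off, the ratios of Ccnt2 ran from 0.05 to 0.98 as deposited and from 0.08 to 0.96 after loess, with 5 of 5 above 0. Those of Ccnt1 ran from -1.06 to -0.01 as deposited and from -1.14 to -0.11 after loess, with 0 of 2 above 0, though the brighter of them was below by no more than 0.01 as deposited. That brighter probe set had a positive ratio before that median was taken off only with medians aligned (0.12, where the median itself was 0.15). The difference between the cyclin genes has no test.

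**Figure D3:**
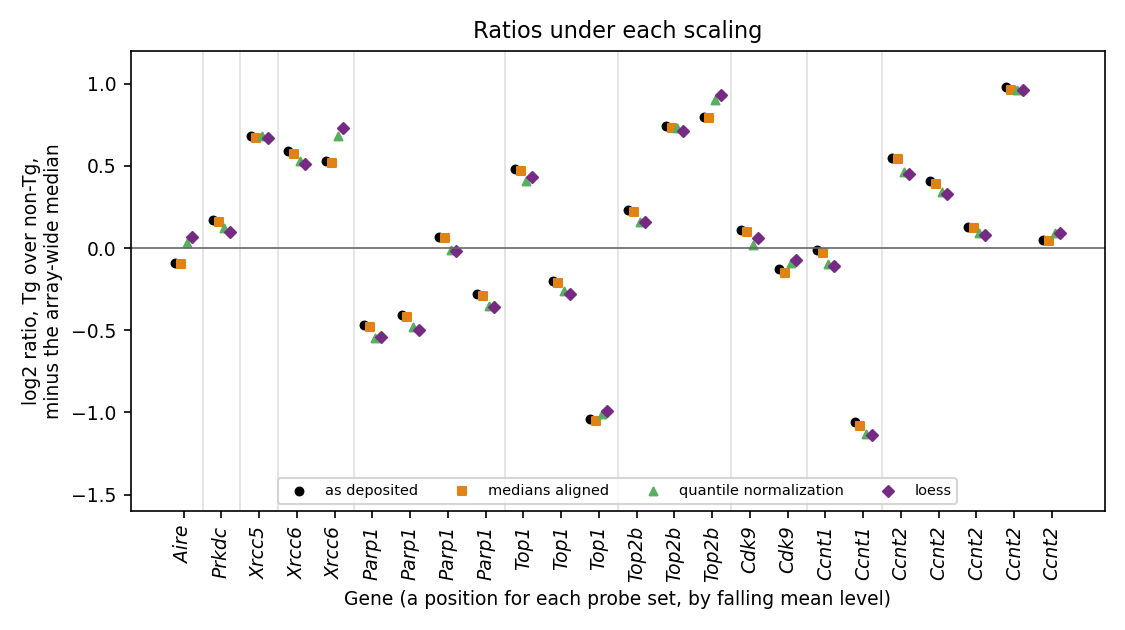
log2 ratio, Tg over non-Tg, of each probe set minus the array-wide median of that scaling, for the 4 scalings named in the legend, with genes in the same order as above and probe sets of a gene by falling mean level. Points of a probe set lie close together; only Aire and the third Parp1 probe set, both near 0, have points on either side of it.

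Around P-TEFb, its inhibitor was higher and the pausing factors were mostly slightly lower on the Tg array. Hexim1, which holds P-TEFb inactive together with the 7SK RNA, was at 2364.4 on the Tg and 1283.7 on the non-Tg array, 1.84-fold higher (log2 0.88), and its other probe set was at 0.62. Cdk13, a kinase of elongating polymerase, was at 3215.5 on the Tg and 2948.0 on the non-Tg array (log2 0.13), with other probe sets at -1.10, -0.67 and 0.04. Hexim2, the relative of Hexim1 and picked out after its values were seen, was at 146.9 on the Tg array and, under the filter, at 81.7 on the non-Tg array (log2 0.85), so it passed only through its Tg value. Larp7 and Mepce, which stabilise and cap the 7SK RNA and were also chosen after their values were seen, had ratios of -0.25 and -0.27 by their representing probe sets, but the other probe sets of Mepce were at 0.31 and -0.50. By their representing probe sets the 8 regulators above the filter had none 2-fold apart and a median of -0.01, and over their 22 probe sets above the filter the -1.10 of Cdk13 was the only 2-fold difference.

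The super elongation complex, which carries P-TEFb to genes, had 8 genes above the filter. By their representing probe sets 4 lay on each side of 0 and none was 2-fold apart, with a median of -0.01. Other probe sets above the filter were 2-fold lower in Mllt1 (-1.34) and Eaf1 (-1.01), both named after their values were seen. That of Mllt1 was at 48.4 on the Tg and 122.2 on the non-Tg array. It passed the filter only through its non-Tg value, so the filter fixed its direction. The scaffold gene Aff1 was at 2638.5 on the Tg and 1851.3 on the non-Tg array (log2 0.51), but its 2 other probe sets were near level at -0.08 and 0.11. Aff4 was at 2789.9 on the Tg and 3481.9 on the non-Tg array (log2 -0.32), and its other probe set was at -0.49. NELF and DSIF are the complexes that hold the paused polymerase. In a list of their genes and Supt6, an elongation factor gene of neither complex, 5 of 6 genes had a ratio below 1. The other 1 of the 6 had a ratio above 1, against 51.2% of all genes. The median was -0.22 and none was 2-fold apart, and Supt6 had the lowest ratio (-0.39). Without Supt6, the log2 ratios of the NELF and DSIF genes ran only from -0.31 to 0.01. Supt5, the large DSIF subunit that CDK9 phosphorylates, was at 4330.1 on the Tg and 4766.1 on the non-Tg array (log2 -0.14). The NELF subunit gene Nelfb was at 2381.5 on the Tg and 2951.6 on the non-Tg array (log2 -0.31).

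All 5 genes of the PAF1 complex, which travels with released polymerase, had ratios above 1 by their representing probe sets, against 51.2% of all genes. Their log2 ratios ran from 0.03 to 0.53 with a median of 0.28. Cdc73 was at 1838.0 on the Tg and 1292.7 on the non-Tg array (log2 0.51), and 4 of its 6 other probe sets were higher. Ctr9 was level at 1307.4 on the Tg and 1284.8 on the non-Tg array (log2 0.03), and 2 of its 4 other probe sets were higher. Of 11 other genes for AIRE partners, 10 had a ratio above 1 by representing probe sets, against 51.2% of all genes, with a median of 0.28. Hipk2, named after its values were seen, was at 0.68, but only 2 of its 5 other probe sets were higher. By representing probe sets 0 were 2-fold higher and 1 was 2-fold lower, against 2.7% and 4.76% of all genes. The lower gene was the splicing factor gene Hnrnpl, at 526.0 on the Tg and 1193.9 on the non-Tg array (log2 -1.18).

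Over the 9 lists of other pathway genes together, 73 of 80 genes were named on the array and all of these lay above the filter, with a median of 0.08. By their representing probe sets 2.74% of the 73 were 2-fold apart in either direction, against 7.46% of all genes. The comparison was not matched by mean level. Over all probe sets above the filter the 2-fold share was 22.8% in the lowest of 4 equal classes of mean level and 2.6% in the highest. In the plot of the lists the members' median of 0.20 lies between that of break sensing and those of the PAF1 complex and the other AIRE partners, all within the middle 50% of all genes.

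Markers of cell type and cell state differed between the arrays beside these ratios. B cell markers were lower on the Tg array in 7 of 7 genes, so 0 had a ratio above 1, against 51.2% of all genes. Their median was -0.55, with summed intensities of 127701 on the Tg and 217353 on the non-Tg array. Ms4a1 (CD20), of highest mean log2 level, was at 28070.7 on the Tg and 41029.2 on the non-Tg array. The gene 2-fold lower among these 7, against 4.76% of all genes, was Cd79a, a chain of the antigen receptor, named after its values were seen. Cd79a was at 18477.6 on the Tg and 49431.5 on the non-Tg array (log2 -1.42). The genes of the sort markers, picked out after their values were seen, all passed the filter by their higher value: Ptprc, which encodes B220, was at 26837.3 on the Tg and 37670.7 on the non-Tg array. Thy1, against which the cells were selected, was at 95.4 on the Tg and 219.6 on the non-Tg array. Itgax (CD11c), also selected against, was at 757.6 on the Tg and 707.7 on the non-Tg array. Proliferation markers were lower or level in 5 of 5, and 0 had a ratio above 1, against 51.2% of all genes. Their median was -0.90, with sums of 10556 on the Tg and 11576 on the non-Tg array. Pcna made up most of each sum at 8475.6 on the Tg and 8478.2 on the non-Tg array. The 1 of these 5 that was 2-fold lower, against 4.76% of all genes, was the thymidine kinase gene Tk1, named after its values were seen. Tk1 was at 334.2 on the Tg and 796.6 on the non-Tg array (log2 -1.25). B cell progenitor markers were dim, with sums of 643 on the Tg and 344 on the non-Tg array. Rag1 was at 126.7 on the Tg array and below the floor on the non-Tg array, Vpreb1 at 167.7 on the Tg and 31.7 on the non-Tg array, and Dntt at 137.7 on the Tg and 65.2 on the non-Tg array. These 3, picked out after their values were seen, passed the filter only through the Tg array, so that the filter fixed their direction. Igll1 was at 205.4 on the Tg and 234.4 on the non-Tg array and Rag2 was below the floor on both.

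Natural killer markers had sums of 4446 on the Tg and 2976 on the non-Tg array over 5 genes. They were led by Gzma at 2611.1 on the Tg and 1445.7 on the non-Tg array. Of the 5, 3 had a ratio above 1, against 51.2% of all genes, and 2 a ratio below 1, with a median log2 ratio of 0.54. At least 2-fold higher was 1 of the 5, against 2.7% of all genes. Neutrophil and myeloid markers had sums of 14081 on the Tg and 15759 on the non-Tg array. They were led by Lyz2 at 5595.9 on the Tg and 6515.1 on the non-Tg array. Of the 6 that passed the filter 3 had a ratio above 1, against 51.2% of all genes, and 3 a ratio below 1. Their median log2 ratio was 0.30. The higher 3, named after their values were seen, were Ngp, Camp and Mpo, and Mpo passed only through its Tg value. Of the 6, 1 was 2-fold or more higher, against 2.7% of all genes. T cell sums were 1039 on the Tg and 1212 on the non-Tg array, led by Cd3d at 328.6 on the Tg and 332.5 on the non-Tg array. Of 5 genes 1 was 2-fold higher and 1 lower, against 2.7% and 4.76% of all genes. The higher was Cd4, named after its values were seen, at 145.7 on the Tg and 40.5 on the non-Tg array. The lower was Thy1, given above. Each passed the filter through 1 array only, so the filter fixed its direction. Dendritic cell sums were 1962 on the Tg and 2005 on the non-Tg array, led by Siglech at 782.1 on the Tg and 931.3 on the non-Tg array. Siglech was lower, but 3 of the 4 genes above the filter had a ratio above 1, against 51.2% of all genes. Their median log2 ratio was 0.12. Zbtb46, named after its values were seen, was among the higher 3 and passed only through its Tg value. Erythroid sums were 113 on the Tg and 170 on the non-Tg array, led by Slc4a1 at 93.7 on the Tg and 141.4 on the non-Tg array, with Alas2 below the floor on both. Sums for medullary thymic epithelium were 250 on the Tg and 367 on the non-Tg array.

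The part of these cell types in the ratios of Aire and its partners was not tested, and in such bulk samples fewer cells of a type and less RNA per cell cannot be told apart. The 3′ to 5′ signal ratio of the beta-actin controls was 1.49 on the Tg and 1.25 on the non-Tg array. That of the Gapdh controls was 0.775 on the Tg and 0.67 on the non-Tg array. The part of these signal ratios in the differences between probe sets of a gene was not tested either.

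By a looser threshold of 1.5-fold, 4 of 22 probe sets were higher (18.2%, against 9.84% of all probe sets above the filter) and 2 were lower (9.09%, against 16.1%). The 4 came from 3 genes, Xrcc5, Top2b and Ccnt2, and the lower ones were the Ccnt1 and Top1 probe sets already given. Among the 4, the dimmest Top2b probe set passed the filter only through its Tg value, so the filter fixed its direction. Of the 10 genes, 5 had a ratio above 1 by every probe set (Prkdc, Xrcc5, Xrcc6, Top2b and Ccnt2), 2 below 1 by every probe set (Aire and Ccnt1) and 3 had probe sets of both signs (Parp1, Top1 and Cdk9). As some genes have a single probe set, agreement between probe sets could be examined for 7 of them.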

How the data were processed

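RNA of B cells was hybridised to 1 Affymetrix mouse array a group, per the labels' protocols. The authors deposited intensity on a linear scale for each probe set. Their software, background correction and scaling are not given in the sources used here, and no detection calls were used. The number of arrays limits the precision: no replicate, test or error was possible.

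The 64 control probe sets of 45101 were set aside. Of the rest, 34945 carry 1 symbol, 932 several and 9160 none in the platform's annotation, and only those with 1 symbol were named. RefSeq genes of GRCm38.p6 were used for names.

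Intensities were used as deposited, since their median log2 ratio over genes above the filter was 0.01, against 0.19 after aligning the array medians (93.1 on the Tg and 104.3 on the non-Tg array). Ratios were taken on the log2 scale with a floor at the pooled 25th percentile. The probe set of highest mean level stood for a gene. Genes named by rule were every member, and of each other pathway list those past 2-fold (up to 4) or else the 2 of highest level. The brightest gene of each marker list was also named. Some further genes were named after their values were seen. The members and lists were chosen with earlier results of these data known. Alternatives were 3 other scalings, other filters, floors, folds and probe set rules. The steps were tested on simulated data. Python 3.11.15, numpy 2.4.6, pandas 2.3.3, statsmodels 0.14.6 and matplotlib 3.10.9 were used.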

Additional observations from a re-analysis of the deposited data

How the results depend on the processing

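No paired analysis was possible because each group is 1 array. The number of member probe sets at least 2-fold lower, 2 as reported, was 0 with medians aligned or at a 3-fold threshold, and 1 after quantile normalization, after loess and when the filter was raised to the 75th percentile, which leaves out the dim Top1 probe set. The number at least 2-fold higher, 0 as reported, was 1 with medians aligned, the Ccnt2 probe set 1435445_at at 1.11, and 4 at 1.5-fold. Among representing probe sets 0 of 9 genes were 2-fold apart as reported, 1 was 1.5-fold higher (Xrcc5), and 1 was 2-fold lower with the probe set of median ratio, Ccnt1, which has 2 probe sets and is then represented by the lower one. The median log2 ratio of the member genes above the filter stayed between 0.14 and 0.36 over all alternatives, the highest with medians aligned, where the median of all genes was 0.19. Of 120 recomputed probe set ratios none moved by the array-wide standard deviation or more, and 5 turned sign, in Aire, Ccnt1 and Parp1 probe sets near 0. The 2-fold genes over the whole array numbered 292 higher and 514 lower as deposited, but 477 higher and 344 lower with medians aligned. Dim probe sets limit what can be read: in the lowest of 4 equal classes of mean level above the filter 22.8% of probe sets were 2-fold apart, against 2.6% in the highest. With 1 array a group, none of these ranges measures the spread between mice.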
